A study of Mus musculus with 2 samples.

Results

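Expression of the CXC chemokines *Cxcl1*, *Cxcl2*, *Cxcl3* and *Cxcl16* and of the chemokine receptors *Cxcr1* and *Cxcr2* was examined in single-cell transcriptomes of mouse alveolar macrophages (AMs), the resident macrophages of the air spaces. The 6 genes were taken by symbol from the 32285 genes listed for each library, and they were read in cell barcodes with at least 500 detected genes and at most 10% of unique molecular identifiers (UMIs) from mitochondrial genes. This kept 6185 of 8485 barcodes in the control library and 7666 of 9175 in the tumor library. The question was how high each gene was in AMs of tumor-bearing lungs, whether few cells held most of its UMIs, and whether it was found in the same cells as *Inhba*, which encodes the subunit of activin A.

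Both libraries were made with 10x Genomics 3′ chemistry from AMs of C57BL/6 mice aged 10 weeks by the labels. The control group received vehicle, and the tumor group carried Lewis lung carcinoma (LLC) cells, a mouse lung cancer line that expressed tdTomato, placed into the left lung. Lungs of both groups were digested with enzymes at body temperature, and the libraries were made from AMs isolated by flow cytometry. The study defines lung AMs as autofluorescent CD45+ cells with Siglec-F, F4/80 and CD11c but without CD11b on their surface, and treats Siglec-F- F4/80+ CD11b+ cells of tumor-bearing lungs, which share the autofluorescence, as tumor macrophages apart from AMs. The mice were female by the study's methods. The methods also speak of hashtags that assigned barcodes to samples, no gene row of the tables is a hashtag, and how many animals went into a library is not stated in the sources used here, so groups follow the labels. Each group is 1 library, so no test was made, and batch and condition cannot be told apart. All intervals are at 95%, exact unless said otherwise, and cover counting error only; the limit given for a count of 0 is that of 3 counts where it is called a floor.

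The kept barcodes held 64850143 UMIs in control and 68801889 in tumor, with medians of 10370 and 8264 per barcode. The libraries shared 25 barcode sequences, 17 of them among the kept barcodes. All 13 listed AM markers were measured, with summed levels of 20617 UMIs per 1000000 UMIs (CPM) in control and 17924 in tumor; 3 were higher and 10 lower in tumor, and the scavenger receptor gene *Marco* was at 585 and 207 CPM. Markers of monocytes or recruited macrophages summed to 368 and 943 CPM, with 6 of 8 at least 2-fold higher in tumor, where 6.02% of all genes were; most of the sum was *Fn1*. Of the genes used to tell tumor macrophages from AMs, *Ccr2* was at 4.38 and 9.16 CPM and *Cx3cr1* at 1.97 and 3.11 CPM, and *Ly6c2* had 10 and 120 UMIs and *Tgfb3* 14 and 8. Of the fibroblast list, *Dcn* had 25 and 963 UMIs and *Col1a1* 3 and 10. Epithelial markers summed to 599 and 232 CPM, of which *Krt19*, found in 5394 control and 3605 tumor barcodes, gave 470.5 and 189 CPM. Barcodes in which the markers of another cell type outnumbered those of AMs numbered 18 and 26. The part of other cell types, tumor macrophages included, in the results that follow was not tested. The reference genes *Actb*, *Gapdh* and *Ptprc* had log2 ratios of tumor over control of −0.07, −0.16 and −0.12, and the median was −0.07 for the 13581 genes whose UMIs came to at least 20 when the libraries were added.

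CXCL1, CXCL2 and CXCL3 belong to the CXC chemokines that carry a Glu-Leu-Arg (ELR) motif ahead of the first cysteines. They bind CXCR2, and CXCR1 binds some ligands of this family; neutrophils carry both receptors and move towards the ligands. Macrophages produce the ELR chemokines after Toll-like receptor or interleukin-1 signaling through NF-κB. CXCL16 differs from them: it has no ELR motif, is made as a transmembrane protein that also takes up oxidized lipoproteins, is shed by ADAM10 and ADAM17, and attracts T and NKT cells through CXCR6.

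The ELR ligand genes lie in one stretch of the plus strand of chromosome 5 (GRCm38), with *Cxcl15* between *Cxcl3* and *Cxcl1*: *Cxcl3* (ENSMUSG00000029379) is at 90786103 to 90789600, *Cxcl1* (ENSMUSG00000029380) at 90891241 to 90893115 and *Cxcl2* (ENSMUSG00000058427) at 90903871 to 90905938. Each main transcript has 4 exons. *Cxcl16* (ENSMUSG00000018920) lies on the minus strand of chromosome 11 at 70453983 to 70459984 and overlaps *Zmynd15* on the other strand, which had 25 and 33 UMIs. The receptor genes are neighbours on chromosome 1, *Cxcr2* (ENSMUSG00000026180) on the plus strand at 74153989 to 74161246 and *Cxcr1* (ENSMUSG00000048480) on the minus strand at 74191785 to 74194631.

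Promoter windows from RefSeq (GRCm38.p6) were read for 5 of the 6 genes; the promoter of *Cxcl16* was not analysed here. The NF-κB motif GGAATTTCC, searched on both strands (GGAAATTCC on the other), was found once in each of the windows of *Cxcl1*, *Cxcl2* and *Cxcl3*, which reach from 250 bases before to 50 after the RefSeq start, and in 0.317% of the 32851 windows of that length. The TATA stretch ATAAAAGG (CCTTTTAT on the other strand) followed it in all 3 and occurred in 1.76% of windows. A stretch of 100 bases is shown for each of these genes because all 3 hold both motifs; it ends ahead of the RefSeq or the GENCODE start, whichever comes first, so for *Cxcl1* and *Cxcl2* it stops short of the RefSeq start. Capitals mark the NF-κB motif and the TATA stretch, and all are on the plus strand.
Cxcl1, chr5:90891141-90891240: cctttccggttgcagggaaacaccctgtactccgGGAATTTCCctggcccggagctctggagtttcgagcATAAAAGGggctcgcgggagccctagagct
Cxcl2, chr5:90903771-90903870: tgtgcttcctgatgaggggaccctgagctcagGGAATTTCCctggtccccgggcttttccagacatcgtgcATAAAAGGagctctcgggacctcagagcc
Cxcl3, chr5:90786001-90786100: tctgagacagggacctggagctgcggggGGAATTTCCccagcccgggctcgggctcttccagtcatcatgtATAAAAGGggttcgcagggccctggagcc
The NF-κB motif began 36, 39 and 43 bases upstream of the TATA stretch in *Cxcl1*, *Cxcl2* and *Cxcl3*. Neither motif was in the windows of *Cxcr1*, *Cxcr2* and *Inhba*, and the AP-1 motif TGANTCA, found in 7.81% of windows, was in none of the 6 windows searched. A match is a description of the letters and not of a bound site. Each motif was searched in these letters only and most windows lack it, so its absence does not set a gene apart.

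The 4 chemokines were higher in the tumor library, and the 2 receptors were lower by a small margin. *Cxcl1* had 1703 UMIs in control and 5184 in tumor. Its control level was 26.3 CPM, with an interval of 25.03 to 27.5, and its tumor level 75.4 CPM, with an interval of 73.3 to 77.4, so that log2 of tumor over control was 1.52 (1.44 to 1.60). *Cxcl3* had 675 and 2154 UMIs, which gave levels of 10.4 and 31.3 CPM and a log2 ratio of 1.59 (1.46 to 1.72). The level of *Cxcl2* was 784 CPM (777 to 791) without and 1299 CPM (1290 to 1308) with a tumor, and its log2 ratio was 0.73 (0.71 to 0.74). The ELR ligands thus differed among themselves, with *Cxcl1* 2.87-fold, *Cxcl3* 3.01-fold and *Cxcl2* 1.66-fold higher. Levels are UMIs per 1000000 and were not divided by transcript length, so they were not ordered between genes.

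*Cxcl16* had the widest difference of the 6 genes by log2 ratio. It rested on 671 UMIs in control and 3419 in tumor, which made levels of 10.3 CPM (9.58 to 11.2) and 49.7 CPM (48.0 to 51.4), and its log2 ratio was 2.26 (2.14 to 2.39). The genes of its sheddases differed less. *Adam10* was at 109 and 134 CPM and *Adam17* at 116 and 111 CPM. Their log2 ratios were 0.29 (0.25 to 0.34) and −0.07 (−0.11 to −0.02). *Cxcr6*, its receptor, had 0 UMIs in control and 12 in tumor.

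The receptor *Cxcr1* had 716 UMIs in control and 586 in tumor, or 11.0 CPM (10.2 to 11.9) and 8.52 CPM (7.84 to 9.24), with a log2 ratio of −0.37 (−0.53 to −0.21). *Cxcr2* differed less, with levels of 10.8 and 9.27 CPM and a log2 ratio of −0.22 (−0.38 to −0.06). For comparison, the log2 ratio of *Inhba* was 1.70 (1.64 to 1.76) between levels of 45.6 and 148 CPM. Of the 6 genes, all of which had at least 20 UMIs in both libraries together, 3 (*Cxcl1*, *Cxcl3* and *Cxcl16*) were at least 2-fold higher in tumor, where 6.02% of all 13581 genes were, and 0 were at least 2-fold lower, where 6.91% were. In the plot of pooled levels the intervals of the libraries were apart for each of the 4 chemokines.

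**Figure D1:**
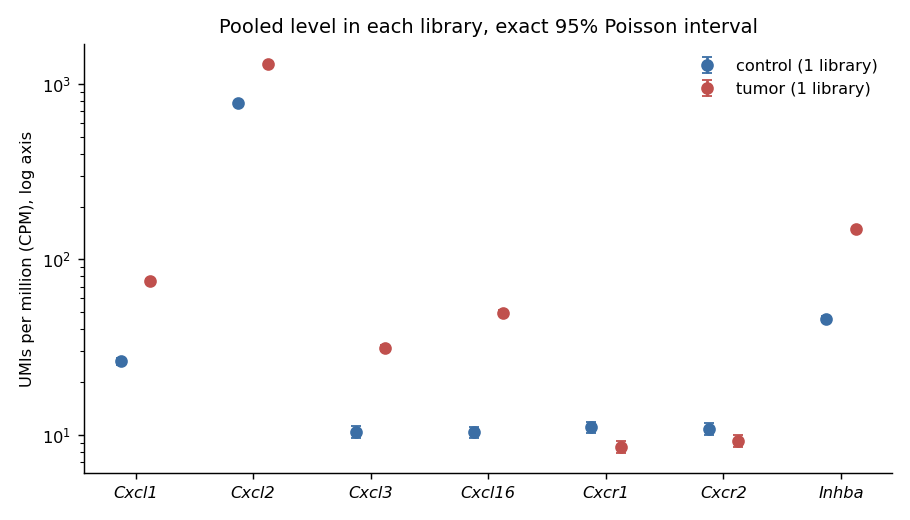
Level of each gene in UMIs per 1000000 (CPM, log axis) in the control and the tumor library, with exact 95% Poisson intervals; 1 point is 1 library. The 4 chemokines and *Inhba* are higher in tumor, from 784 to 1299 CPM for *Cxcl2* to 10.3 to 49.7 CPM for *Cxcl16*, while *Cxcr1* and *Cxcr2* are slightly lower.

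Counts of genes at least 2-fold higher or lower in the lists that follow stand beside the shares over all genes, 6.02% and 6.91%. The other ELR ligands were scarce. *Cxcl15*, a chemokine of lung epithelium, had 32 UMIs in control and 28 in tumor. *Cxcl5* had 0 UMIs in both, with exact upper limits of 0.0569 CPM in control and 0.0536 in tumor, and *Ppbp* had 0 and 1. Of the 7 measured genes among the other CXC and CX3C ligands, *Cxcl16* included, 4 were at least 2-fold higher and 0 lower, with a median log2 ratio of 1.80. The CXCR3 ligands were among them, with *Cxcl9* at 4.16 and 23.1 CPM and *Cxcl10* at 4.67 and 16.2 CPM, and *Cxcl12* rested on 5 and 26 UMIs. *Pf4*, the platelet factor, was at 3.30 and 5.31 CPM. *Cxcl14* and *Cx3cl1* were lower in tumor, at 15.3 and 9.90 CPM and at 18.6 and 10.4 CPM, so the members of the family differed in direction.

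Among the 5 measured CXC receptors, 2 were at least 2-fold higher, both on few UMIs: the scavenging receptor *Ackr3* with 3 in control and 24 in tumor, and *Ackr1* with 0 and 30, which was set against a floor of 3 UMIs. *Cxcr4*, the CXCL12 receptor, had levels of 104 and 128 CPM and a log2 ratio of 0.30 (0.25 to 0.34).

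The genes of signaling upstream of the ELR ligands were read from 2 lists. Of 11 genes of Toll-like receptor and MyD88 signaling, 0 were at least 2-fold higher or lower, a count close to the share over all genes, and the median log2 ratio was 0.16. The co-receptor *Cd14* (0.88), the inhibitory kinase *Irak3* (0.78) and *Irak4* (0.27) had the highest log2 ratios, and *Map3k7* (−0.07), *Ticam1* (−0.15) and the adaptor *Myd88* (−0.23) the lowest. Of 14 genes of NF-κB and its feedback, 4 were at least 2-fold higher and 0 lower, with a median of 0.56, below the log2 ratio of *Cxcl2* (0.73). Feedback genes led, with *Tnip3* at 1.76, the deubiquitinase gene *Tnfaip3* at 1.10 and *Nfkbiz* at 1.10, while the subunit genes *Rela* and *Relb* were at 0.14 and 0.05 and the inhibitor *Nfkbib* at −0.08.

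Other inflammatory genes were read from a list of their own. Of its 11 measured genes, 7 were at least 2-fold higher and 0 lower, with a median log2 ratio of 1.72. *Ptgs2*, the inducible cyclooxygenase, had 20 UMIs in control and 1147 in tumor, *Il10* 4 and 40 and *Il6* 201 and 1822, and *Il1b* was at 135 and 687 CPM. *Ccl3*, *Il1a* and *Tnf* had the lowest log2 ratios, 0.24, 0.15 and −0.12. Genes known to respond to tissue dissociation were also mostly higher in tumor, with 15 of 16 above 0. The median of the 16 was 0.61, where that of all genes was −0.07. Of the 16, 4 were at least 2-fold higher and 0 lower, and their levels summed to 5559 CPM in control and 8624 in tumor. *Ier3* (1.68), *Hspa1b* (1.55) and *Hspa1a* (1.23) were highest and *Klf6* (0.13), *Dnajb1* (0.01) and *Hsp90aa1* (−0.06) lowest. Their part in the levels of *Cxcl1*, *Cxcl2* and *Cxcl3* was not tested.

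To compare the share of cells with each gene, every barcode was reduced at random to 3800 UMIs, which left out 595 control and 729 tumor barcodes below that depth, and shares were averaged over 100 such draws. *Cxcl2* was found in 44.7% (43.4 to 46.0) of control and 62.3% (61.1 to 63.4) of tumor barcodes. *Cxcl1* was found in 4.12% (3.62 to 4.68) and 11.4% (10.6 to 12.2), and *Cxcl3* in 2.01% (1.66 to 2.41) and 5.46% (4.93 to 6.02). *Cxcl16* was found in 3.34% (2.89 to 3.85) and 13.5% (12.7 to 14.3). The chemokines were therefore in more tumor barcodes, by 17.6 percentage points (15.8 to 19.3) for *Cxcl2* and 10.2 (9.20 to 11.1) for *Cxcl16*. At full depth the shares were 56.8% and 69.9% for *Cxcl2*, 6.66% and 15.9% for *Cxcl1*, 3.54% and 8.10% for *Cxcl3* and 8.55% and 25.4% for *Cxcl16*.

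The receptors were in a few percent of barcodes of both libraries. *Cxcr1* was found in 2.97% of control and 2.54% of tumor barcodes, a difference of −0.43 points (−1.02 to 0.16), and *Cxcr2* in 3.38% and 3.12%, a difference of −0.25 points (−0.90 to 0.38). Both intervals include 0. At full depth *Cxcr1* was in 6.94% and 5.40% of barcodes and *Cxcr2* in 8.07% and 5.92%. Free RNA can give UMIs in cells that do not express a gene: in the 18 and 26 barcodes of other types, with median depths of 3840 and 10700 UMIs, *Cxcr1* was in 0 and 0 and *Cxcr2* in 1 and 0, so exact upper limits of 18.5% and 13.2% for *Cxcr1* leave this background undetermined. *Cxcl2* was in 6 and 7 of these barcodes, *Cxcl1* in 0 and 7, *Cxcl3* in 0 and 1 and *Cxcl16* in 0 and 4.

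Whether the receptor UMIs came with neutrophil markers was read in 1 of the draws. *S100a9* was in 0 of 164 control and 0 of 190 tumor barcodes with *Cxcr1* (floors of 1.83% and 1.58%), and in 0 of 184 and 0 of 203 barcodes with *Cxcr2*. Only 4 control and 2 tumor barcodes of all those kept had it, so these counts of 0 cannot set the receptor barcodes apart. *S100a8*, the most abundant gene of the neutrophil list, was in 21.3% (15.3 to 28.4) of control barcodes with *Cxcr1* and 11.5% (10.7 to 12.4) of those without, and in 29.5% (23.1 to 36.5) and 24.3% (23.3 to 25.4) in tumor. It was in 9.78% of control barcodes with *Cxcr2* and 11.9% of those without, and in 19.2% and 24.6% in tumor. *Csf3r*, the receptor of granulocyte colony-stimulating factor, was in 6.52% (3.42 to 11.1) of control barcodes with *Cxcr2* and 3.03% (2.59 to 3.53) of those without, and in 2.96% and 4.25% in tumor. With and without *Cxcr1* it was in 1.22% and 3.21% in control and in 3.68% and 4.22% in tumor. *Mmp8*, a collagenase of neutrophils, was in 12.2% and 12.6% of control and 5.79% and 8.02% of tumor barcodes with and without *Cxcr1*, and in 15.8% and 12.5% and in 4.43% and 8.06% with and without *Cxcr2*. The markers thus lay on both sides. The intervals with and without the receptor were apart for *S100a8* with *Cxcr1* in control and overlapped for *S100a8* with *Cxcr1* in tumor and, by a small margin, for *Csf3r* with *Cxcr2* in control. The AM markers together had 81.1 and 78.5 UMIs per barcode with and without *Cxcr1* in control and 75.2 and 70.2 in tumor, and 81.5 and 78.5 with and without *Cxcr2* in control and 84.8 and 69.9 in tumor. Over the whole libraries the 11 neutrophil markers summed to 103 CPM in control and 141 in tumor, of which *S100a8* gave 45.2 and 104 CPM and *Mmp8* 43.3 and 26.5 CPM. *S100a9* had 324 UMIs in 4 control barcodes and 3 UMIs in tumor, and *Csf3r* had 554 and 725 UMIs. *Ly6g* had 2 and 0 UMIs, *Retnlg* 50 and 0, *Camp* 0 and 3 and *Ltf* 0 and 4, and *Ngp* and *Stfa2* had 0 in both.

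In control, few barcodes held most UMIs of *Cxcl1* and *Cxcl3*. The highest 1% of barcodes for *Cxcl3*, 62 in control and 77 in tumor, held 70.5% and 47.9% of its UMIs. For *Cxcl1* they held 54.9% and 32.2%, and 52 control and 172 tumor barcodes were enough for the first 50% of UMIs. The highest barcode had 51 *Cxcl1* UMIs in control and 55 in tumor, and 43 control and 121 tumor barcodes carried 10 or more. *Inhba* was held in a like way, with 48.6% and 21.8% of its UMIs in the highest 1% of barcodes.

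*Cxcl2* was spread more widely, with 18.9% and 12.3% of UMIs in the highest 1% of barcodes, and 1258 control and 2411 tumor barcodes had at least 10 of its UMIs. *Cxcl16* came in low numbers per cell: the highest 1% held 25.8% and 16.2%, and the highest barcode had 10 and 15 UMIs. *Cxcr1* (35.5% and 37.5%) and *Cxcr2* (28.1% and 34.3%) also had no heavily loaded cells, with at most 9 and 9 and at most 9 and 10 UMIs in a barcode. Since a gene with few UMIs is held by few barcodes at random, variability beyond sampling was ranked at the reduced depth, as the squared coefficient of variation in excess of Poisson noise. *Cxcl1* ranked 4 of 6822 genes in control and 30 of 6799 in tumor, *Cxcl2* ranked 55 and 157, and *Inhba* 8 and 33. *Cxcl3* ranked 10 and *Cxcl16* 226 in tumor, and in control their mean was under the minimum of 0.05 UMIs per barcode, as were the receptors in both libraries.

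**Figure D2:**
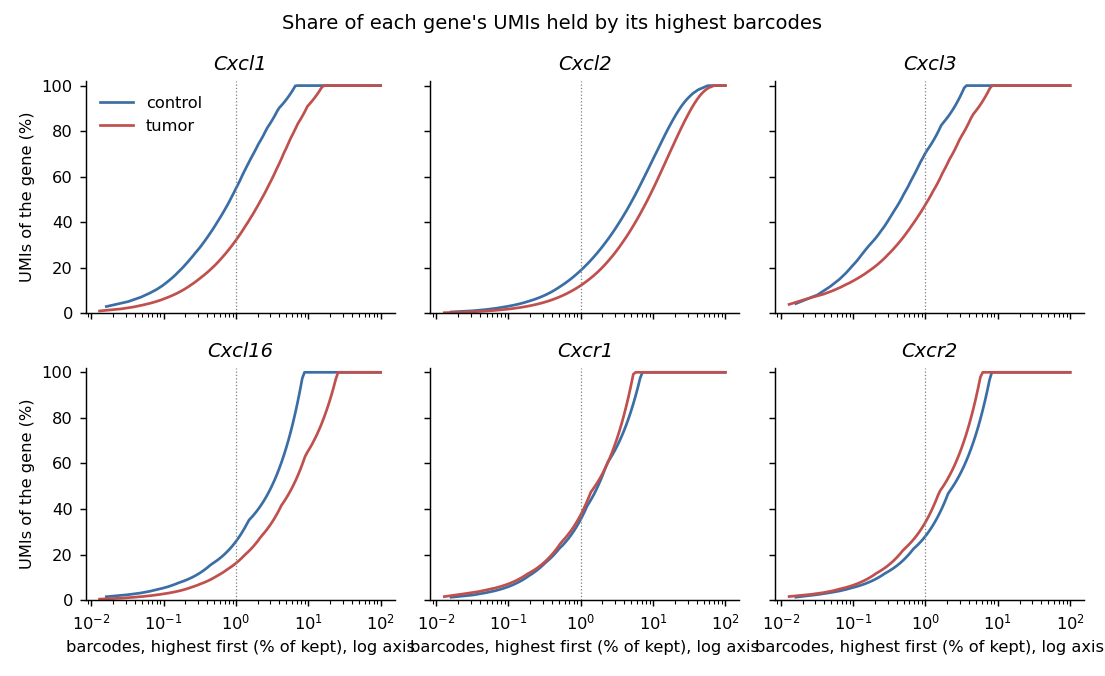
Share of a gene's UMIs (linear axis, %) held by its highest barcodes, against the share of kept barcodes counted from the highest (log axis, %), in control and tumor; the dotted line marks 1% of barcodes. In control the highest 1% of barcodes hold 70.5% of *Cxcl3*, 54.9% of *Cxcl1* and 18.9% of *Cxcl2* UMIs; in tumor they hold 47.9%, 32.2% and 12.3%, and the values of *Cxcr1* (37.5%) and *Cxcr2* (34.3%) lie above that of *Cxcl1*.

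The ELR ligands overlapped in cells. *Cxcl2* was in 91.1% (86.6 to 94.4) of the control barcodes with *Cxcl1* and in 42.7% (41.4 to 44.1) of those without, and in 91.2% (89.0 to 93.04) and 58.6% (57.3 to 59.8) in tumor. *Cxcl3* was in 3.84% of the control barcodes with *Cxcl2* and in 0.526% of those without, and in 8.01% and 1.25% in tumor. Read the other way, most barcodes with *Cxcl2* had no *Cxcl1*: it was in 8.39% of control and 16.7% of tumor barcodes with *Cxcl2*, and in 18.2% and 29.3% of those with *Cxcl3*. Over barcodes, the Pearson coefficient of *Cxcl1* and *Cxcl2* on log counts was 0.35 in control (5590 barcodes) and 0.36 in tumor (6937 barcodes), a description of barcodes that share a library and a depth. *Cxcr1* and *Cxcr2* showed little overlap, with *Cxcr2* in 5.71% (2.71 to 10.4) of control barcodes with *Cxcr1* against 3.30% (2.85 to 3.81) without, and in 5.96% (2.96 to 10.5) against 3.05% (2.65 to 3.49) in tumor, intervals that touch in both libraries.

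Of 6538 genes compared in both libraries by the smaller of the 2 Pearson coefficients, read in 1 of the draws, those most like *Cxcl1* were *Cxcl2* (0.35), the interleukin-1 genes *Il1b* and *Il1a* (0.20 each), *Nfkbia* (0.20) and *Nfkbiz* (0.19). Those most like *Cxcl2* were *Nfkbia* (0.42), *Cxcl1* (0.35), *Nfkbiz* (0.30), *Tnfaip3* (0.28) and *Il1b* (0.24). *Inhba* was at place 12 in the order for *Cxcl1* and at place 39 for *Cxcl2*. In the order for *Inhba*, *Cxcl1* was at place 7 and *Cxcl2* at place 10. *Cxcl3*, *Cxcl16*, *Cxcr1* and *Cxcr2* were not ranked because their mean was under the minimum in at least 1 library.

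Co-expression with *Inhba* was compared between barcodes with and without an *Inhba* UMI at the reduced depth, on average 349 and 5241 barcodes in control and 1413 and 5524 in tumor. *Cxcl1* was in 11.4% (8.25 to 15.2) of control barcodes with *Inhba* and 3.64% (3.15 to 4.18) of those without, a difference of 7.74 points (4.56 to 11.6). In tumor it was in 15.8% and 10.2%, a difference of 5.55 points (3.51 to 7.71). *Cxcl2* was in 55.2% and 44.0% in control and in 70.4% and 60.2% in tumor, differences of 11.2 points (5.60 to 16.6) and 10.2 points (7.46 to 12.9). *Cxcl3* differed by 2.18 points (0.33 to 4.84) in control and 4.41 (2.86 to 6.11) in tumor. *Cxcl16* differed by 3.62 points (1.17 to 6.81) and 3.27 (1.18 to 5.47). All 4 chemokines were thus in more of the barcodes with *Inhba*, in both libraries. The share of all genes for which this held was not measured, so the count cannot set the chemokines apart from other genes. The interval of *Cxcl3* in control included 0 at 1900 UMIs (1.70 points, −0.01 to 4.61) and without its 10 highest barcodes (1.60, −0.07 to 4.09), as did that of *Cxcl16* in tumor at 1900 UMIs (1.66, −0.09 to 3.62). The relation was loose from cell to cell: averaged over the draws, Pearson coefficients with *Inhba* were 0.14 for *Cxcl1* in control and *Cxcl2* in tumor and lower for the other members, and in tumor 28.3% of barcodes with *Cxcl1* had an *Inhba* UMI at this depth, against 20.4% of all barcodes.

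The receptors did not follow 1 pattern. *Cxcr1* was in 10.2% (7.22 to 13.8) of control barcodes with *Inhba* and 2.49% (2.08 to 2.95) of those without, a difference of 7.70 points (4.70 to 11.4). In tumor it was in 2.81% (2.01 to 3.81) and 2.47% (2.08 to 2.92), a difference of 0.34 points (−0.58 to 1.41). Whether this differs between the libraries was not tested. *Cxcr2* differed by 1.11 points (−0.86 to 3.86) in control and −0.33 (−1.28 to 0.77) in tumor, with 0 inside both intervals. The single draws ranged from 3.52 to 11.2 points for *Cxcr1* in control. At full depth, *Cxcr1* was at 33.0 CPM in control barcodes with *Inhba* and 7.75 CPM in those without, and at 10.2 and 7.71 CPM in tumor. Its log2 ratios of barcodes with over without *Inhba* were 2.09 (1.87 to 2.31) in control and 0.41 (0.16 to 0.65) in tumor. *Cxcr2* was at 14.2 and 10.3 CPM in control, a log2 ratio of 0.46 (0.17 to 0.75) of barcodes with over without *Inhba*, and at 7.74 and 9.996 CPM in tumor, with −0.37 (−0.63 to −0.11), so that its levels, unlike its shares, had intervals apart from 0 and opposite in direction. Whether the libraries differ in this was not tested. Barcodes with *Inhba* were deeper, with medians of 12792 against 10108 UMIs in control and 9369 against 7896 in tumor.

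Shares were then read by the number of *Inhba* UMIs per barcode. In tumor, *Cxcl3* was in 4.56% of barcodes with 0 *Inhba* UMIs, in 7.02% with 1, in 9.08% with 2 and in 11.5% (8.82 to 14.7) with 3 or more. *Cxcl1* went from 3.64% at 0 to 18.4% (11.0 to 27.9) at 3 or more in control and from 10.2% to 18.3% (15.01 to 22.0) in tumor. The control intervals at 0 and at 3 or more overlapped for *Cxcl3*, at 1.87% (1.52 to 2.28) and 5.80% (1.97 to 12.8), and for *Cxcl16*, at 3.12% (2.67 to 3.63) and 7.61% (3.08 to 15.1). *Cxcr1* was in 2.49% and 13.7% (7.34 to 22.5) of control barcodes at 0 and at 3 or more, and in 2.47% to 2.87% of tumor barcodes over all 4 classes.

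**Figure D3:**
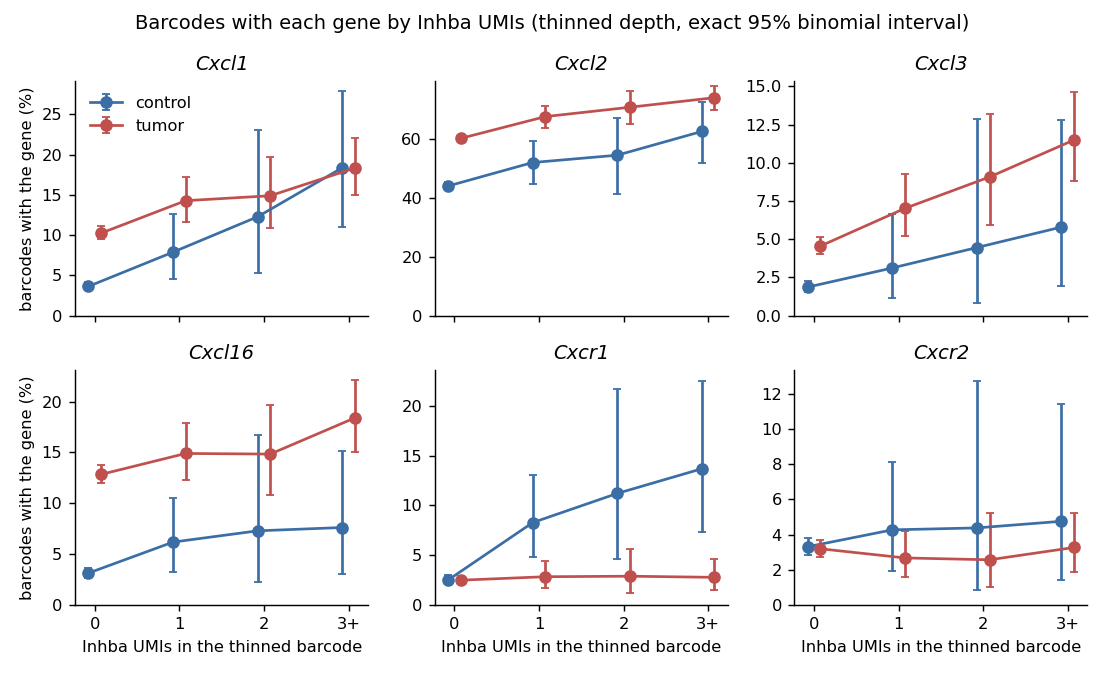
Share of barcodes with each gene (%, linear axis from 0) by the number of *Inhba* UMIs in the same barcode, all at 3800 UMIs per barcode, means over 100 draws with exact 95% binomial intervals. The share of each of the 4 chemokines is higher at 3 or more *Inhba* UMIs than at 0, with overlapping intervals for *Cxcl3* and *Cxcl16* in control; *Cxcr1* is in 2.49% and 13.7% of control barcodes at these ends, and *Cxcr2* lies between 2.56% and 4.76%.

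The barcodes that held the most UMIs of a gene were also read for *Inhba*. All of the 10 highest *Cxcl1* barcodes of each library carried *Cxcl2*, and 8 in control and 7 in tumor carried *Inhba*, where 10.4% and 28.2% of all kept barcodes did. Of the 10 highest *Cxcr1* barcodes, 6 in control and 3 in tumor carried *Inhba*, with 103 and 3 *Inhba* UMIs between them. These barcodes were deep, with a median of 18178 UMIs for the highest *Cxcl1* barcodes of control and 17944 for the highest *Cxcr1* barcodes. For *Cxcl2*, *Cxcl3*, *Cxcl16* and *Cxcr2*, 6, 3, 2 and 4 of the 10 highest control barcodes carried *Inhba*. In tumor these numbers were 8, 8, 5 and 0.

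Where the genes were high was then read over clusters, built from both libraries without the 6 genes and *Inhba* and without a correction between libraries. The 18 clusters of at least 50 barcodes, lettered A to R by size, are called by their leading genes and were given no cell type; where nearly all barcodes of a cluster come from the same library, cluster and library cannot be told apart. Levels were ranked for each library over the clusters in which it had at least 50 barcodes. In control, all 3 ELR ligands were highest in cluster C, led by *Ereg*, *Il1a*, *Areg* and *Tnfaip3*: *Cxcl1* was at 199.6 CPM (183 to 218), *Cxcl2* at 3958 (3881 to 4037) and *Cxcl3* at 70.1 (60.1 to 81.2). Its 275 barcodes had 3.89% of all control UMIs and held 29.6% of *Cxcl1*, 19.7% of *Cxcl2* and 26.2% of *Cxcl3* UMIs. *Inhba*, although left out of the clustering, was among the 10 leading genes of cluster C and also of cluster H. In control its level was 146.5 CPM in cluster C, with 12.5% of its UMIs, and 237 CPM in cluster H, with 49.7%.

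In tumor, *Cxcl3* was again highest in cluster C, at 60.5 CPM (56.2 to 65.0) over 1626 barcodes, with 35.0% of its UMIs. *Cxcl1* and *Cxcl2* were highest in cluster J, led by *Apoe* and the complement genes *C1qa*, *C1qb* and *C1qc*, at 175 (164 to 187) and 2060 (2021 to 2099) CPM, ahead of cluster C for *Cxcl1*, at 106 CPM (101 to 112), and of cluster L, led by *Rsad2* and *Ifit1*, for *Cxcl2*, at 1652 CPM (1611 to 1695). The intervals of these neighbours were apart. The order depended on the clustering: at a resolution of 1.5 in place of 1, which gave 22 clusters, both genes were highest in tumor in a cluster led by *Ereg*, *Areg* and *Il1a*, at 159 CPM (149.6 to 169) and 1984 CPM (1951 to 2017). Cluster J had 368 tumor and 7 control barcodes.

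*Cxcl16* was highest elsewhere. In tumor its level was 140 CPM (130 to 152) in cluster K, led by *Cxcl9* and *Ccl5*, and 134 CPM (124 to 144) in cluster J, values that do not differ beyond their intervals; the 2 clusters held 19.0% and 20.4% of its UMIs with 6.71% and 7.57% of all UMIs. In control it was highest, at 50.9 CPM (36.2 to 69.6), in the 78 barcodes of cluster B, led by *F13a1* and *Vps37b*. At resolution 1.5 the cluster led by *F13a1* had 41 control barcodes and was not ranked, and the highest control cluster was that led by *Ereg*, at 28.4 CPM (20.7 to 38.0); at resolution 0.5 its highest tumor cluster was that led by *Apoe*, at 142 CPM (131 to 153).

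*Cxcr1* had its highest level in cluster H, led by *Mmp12* and *Fstl1*, in both libraries. Its level there was 59.1 CPM (53.2 to 65.5) in 434 control barcodes and 68.1 CPM (50.03 to 90.5) in 62 tumor barcodes, and the next highest clusters were at 26.2 CPM in control and 19.3 CPM in tumor. Cluster H held 51.3% of control *Cxcr1* UMIs with 9.58% of all control UMIs, and 8.02% of tumor *Cxcr1* UMIs with 1.003% of all tumor UMIs. In tumor more of its UMIs were in clusters C (19.5%), D (16.0%), K (13.7%) and E (11.4%), so most lay outside cluster H there. These 4 clusters had 18.1%, 11.6%, 6.71% and 5.04% of all tumor UMIs. *Inhba* was at 237 CPM in control and 594 CPM in tumor in cluster H. *Cxcr2* had no such cluster: its highest levels were 20.8 CPM (15.4 to 27.5) in control and 23.0 CPM (18.3 to 28.7) in tumor. It was low in 2 clusters mostly of tumor barcodes, with 1.36 CPM (0.895 to 1.98) in B and 2.49 CPM (1.33 to 4.27) in J.

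**Figure D4:**
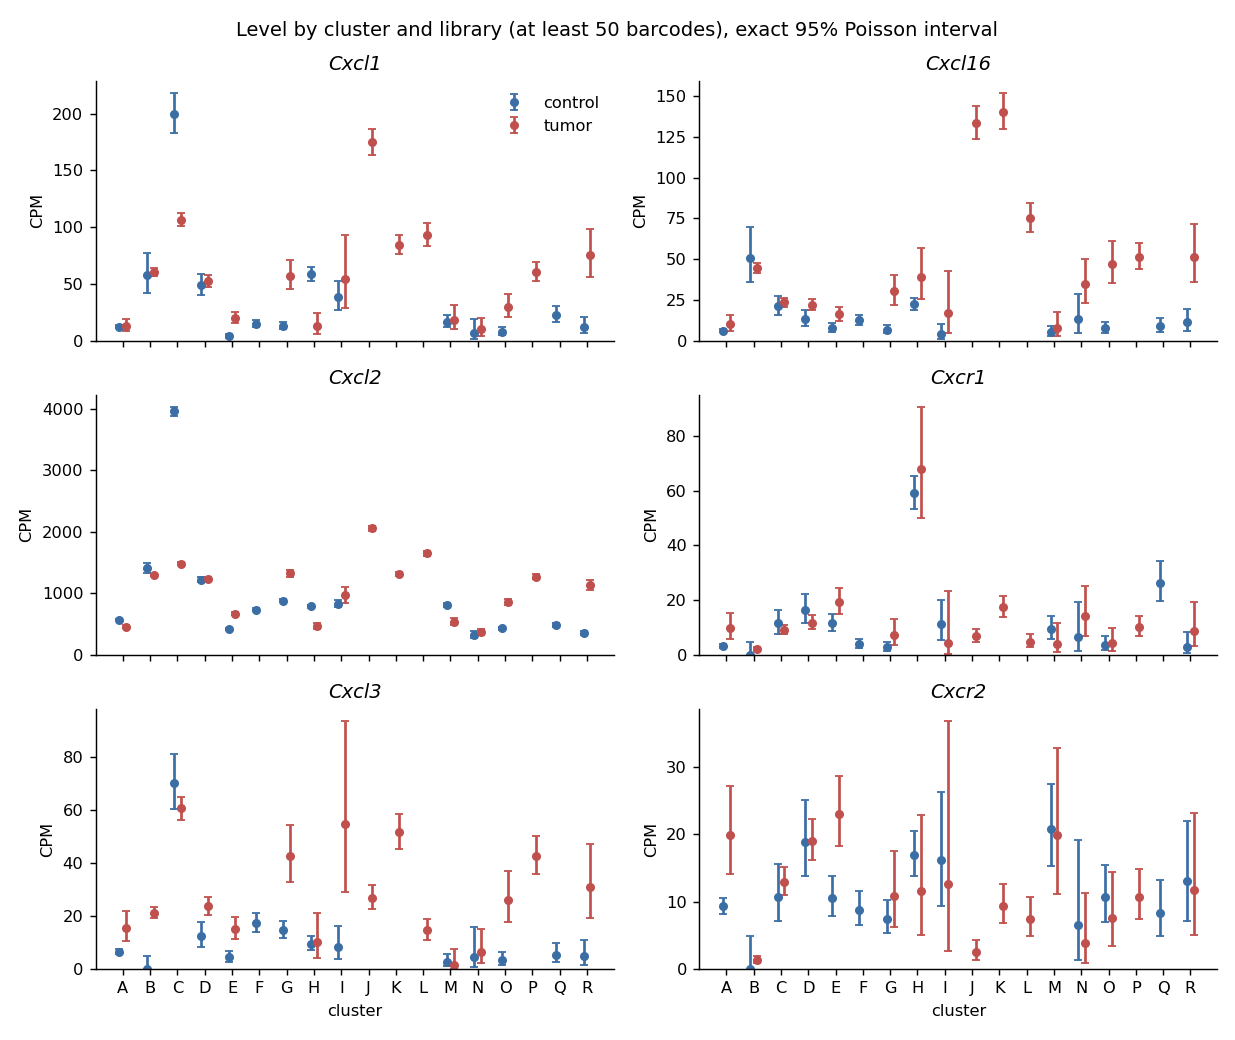
Level of each gene in CPM (linear axis from 0) by cluster, for control and tumor where a library has at least 50 barcodes in the cluster, with exact 95% Poisson intervals. The ELR ligands peak in cluster C of control, *Cxcl16* in clusters J and K of tumor, and *Cxcr1* in cluster H of both libraries, at 59.1 and 68.1 CPM.

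Within clusters the libraries were compared where each had at least 50 barcodes and the gene had at least 20 UMIs together and some in each library. This left out cluster B, with 78 control and 2442 tumor barcodes, for 3 genes without UMIs in its control barcodes. There *Cxcl3* had 0 and 418 UMIs, or 0 and 21.0 CPM, *Cxcr1* 0 and 41 UMIs and *Cxcr2* 0 and 27. *Cxcl2*, higher in tumor over all barcodes, was higher within 5 of 12 clusters, lower within 5, and had an interval that included 0 in 2. Its log2 ratio was −1.42 (−1.45 to −1.38) in cluster C, where its levels were 3958 CPM in control and 1484 CPM in tumor, and 1.68 (1.502 to 1.86) in cluster R, led by cell division genes. *Cxcl1* was higher within 4 of 11 clusters and lower within 2, from −2.17 (−3.31 to −1.23) in cluster H to 2.63 (1.73 to 3.63) in cluster R. Both ends rested on few UMIs. Cluster H had 9 *Cxcl1* UMIs in its 62 tumor barcodes, 4.84% of which had the gene, and cluster R had 13 in its 87 control barcodes. *Cxcl3* was higher within 7 of 9 clusters and *Cxcl16* within 7 of 10, and neither was lower beyond its interval in any of those compared. *Cxcl16* was alike in cluster B, at 50.9 and 44.5 CPM. *Cxcr1* was higher within 3 of 7 clusters and *Cxcr2* within 2 of 9, and neither was lower beyond its interval, while both were lower over all barcodes.

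**Figure D5:**
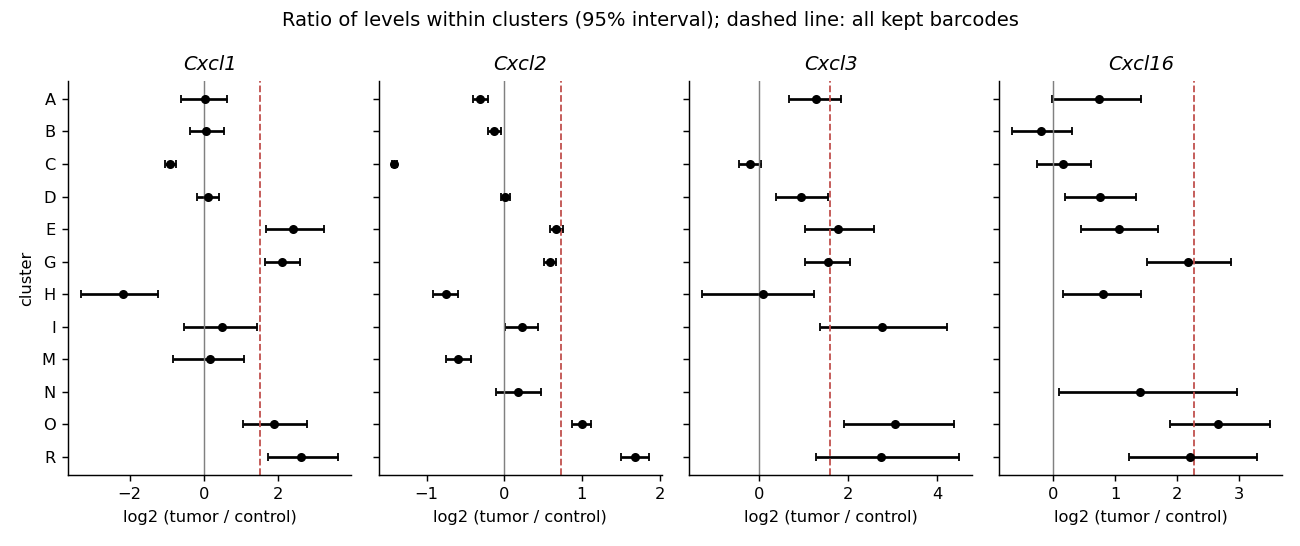
Log2 ratio of tumor over control within each cluster that could be compared, with exact 95% intervals, for the 4 chemokines; the solid line is 0 and the dashed line the ratio over all kept barcodes. *Cxcl2* lies on both sides of 0, from −1.42 in cluster C to 1.68 in cluster R, while *Cxcl3* and *Cxcl16* have no interval below 0.

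Co-expression with *Inhba* was also read inside clusters with at least 50 barcodes of each kind, 2 in control and 7 in tumor. In tumor, *Cxcl1* and *Cxcl2* were each in more of the barcodes with *Inhba* in 7 of 7 clusters, with an interval above 0 in 2 and 3, and *Cxcl3* in 6 of 7, with an interval above 0 in 4. In cluster C of tumor, *Cxcl3* was in 14.9% of barcodes with *Inhba* and 7.60% of those without, a difference of 7.25 points (3.32 to 11.7). In control, *Cxcl1* differed by 7.85 points in cluster H, with an interval above 0. In cluster A, the largest, it differed by 0.12 points (−2.21 to 5.98), *Cxcl2* by −0.42 points (−10.9 to 10.7) and *Cxcl3* by −0.66 points (−1.59 to 4.10), and the other chemokine differences in the 2 control clusters also had 0 in their intervals. *Cxcl16* differed by −4.11 to 5.98 points over the tumor clusters, with 0 in each interval. In cluster H of control, *Cxcr1* was in 23.3% of barcodes with *Inhba* and 15.4% of those without, a difference of 7.89 points (−0.55 to 17.1), and in cluster A by 1.79 points (−0.60 to 7.72), so that within clusters the *Cxcr1* difference of control had 0 inside both intervals.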

How the data were processed

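The authors deposited 1 table of UMI counts per gene and cell barcode for each library, not normalized. The submitters' processing notes name bcl2fastq 2.20, Cell Ranger 4.0.0 and mm10; the study's methods name a later Cell Ranger. Of 32285 gene identifiers, 32158 matched a symbol. From the deposited counts, barcodes with at least 500 genes and at most 10% mitochondrial UMIs were kept; doublets were not removed in the values reported. Levels are UMIs summed over barcodes, per 1000000, with exact Poisson intervals; ratios carry exact conditional binomial and shares exact binomial intervals, and a difference of shares combines the distances of both shares to their limits. For shares, UMIs of each barcode were drawn at random, none more than once, down to 3800 (percentile 10 of barcodes in the library of lower median depth, rounded down), with averages over 100 draws; ranks of variability and likeness and the marker check used 1 draw. Clusters were built on 2000 variable genes, 50 components, 15 neighbours and Leiden at resolution 1, without the 6 genes, *Inhba*, ribosomal and mitochondrial genes and antigen receptor segments.

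Genes named are the 6 genes and *Inhba*, and those of the CXC ligand, receptor and sheddase lists with at least 20 UMIs. Also named are the 3 highest and 3 lowest log2 ratios of the signaling, NF-κB, inflammatory gene and dissociation lists. The 5 genes most like *Cxcl1* and the 5 most like *Cxcl2*, control genes and cell type markers are named too. *Cxcl5*, *Ppbp* and *Cxcr6*, under 20 UMIs, and leading genes of clusters are named besides. The 6 genes and the lists were chosen with earlier results of these data known. Alternatives changed doublets, filters, scaling, depth, thresholds and resolution. The scripts were tested on simulated data. The tools were scanpy 1.11.5 (with its Scrublet), leidenalg 0.10.2, igraph 0.11.9, matplotlib 3.10.9, scikit-learn 1.9.0, pandas 2.3.3, numpy 2.4.6, scipy 1.17.1 and Python 3.11.15.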

Additional observations from a re-analysis of the deposited data

Results flagged for a closer look

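The barcodes left out by the quality filter, 2300 in control and 1509 in tumor, were left out of the report and entered the alternative with all deposited barcodes. They held 2996945 and 1936431 UMIs, and the chemokines were higher in tumor there too: the log2 ratio was 1.74 (1.34 to 2.17) for *Cxcl1*, 0.62 (0.54 to 0.71) for *Cxcl2*, 2.35 (1.62 to 3.13) for *Cxcl3* and 2.57 (1.78 to 3.43) for *Cxcl16*. *Cxcr1* was also higher in tumor, at 1.01 (0.11 to 1.93) from 20 and 26 UMIs, opposite to the kept barcodes, whereas *Cxcr2* was lower, at −1.01 (−1.86 to −0.22) from 56 and 18 UMIs.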

How the results depend on the processing

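The direction of each log2 ratio and each share difference whose interval excluded 0 was the same under every alternative run. Of the *Inhba* differences whose interval excluded 0, *Cxcl3* of control at 1900 UMIs (1.70 points) and without its 10 highest barcodes (1.60) and *Cxcl16* of tumor at 1900 UMIs (1.66) had 0 in their intervals. The log2 ratio of *Cxcl1* became 1.70 without its 10 highest barcodes in each library and 1.44 as the mean of each barcode's own CPM; *Cxcl3* became 1.83 without its 10 highest; *Cxcl16* became 2.12 by the mean of CPM; and *Cxcl2* became 0.69 without the highest-scoring 6% by Scrublet, 0.76 without its 10 highest, 0.69 by the mean of CPM and 0.80 relative to the median of all genes. The share differences of *Cxcl1*, *Cxcl3* and *Cxcl16* were 4.87, 2.31 and 5.53 points at 1900 UMIs and 3.75, 1.58 and 2.16 points when 2 UMIs were asked for. With *Inhba*, the *Cxcl1* difference of control was 12.1 points at 2 or more *Inhba* UMIs and the *Cxcr1* difference 4.41 points (1.82 to 8.09) at 1900 UMIs.

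The highest 1% of all deposited barcodes held 61.2% and 34.7% of *Cxcl1*, 22.3% and 13.7% of *Cxcl2*, 76.1% and 50.5% of *Cxcl3* and 31.8% and 18.1% of *Cxcl16* UMIs in control and tumor, and 42.7% of *Cxcr1* and 32.3% of *Cxcr2* UMIs in control. For *Cxcl2* the shares were 19.2% and 12.7% without the highest-scoring 6%, 18.5% and 12.0% at 5% mitochondrial UMIs, and 18.5% in control at 1000 genes. Levels in the highest cluster at resolution 0.5 were 225 CPM (control) and 191 CPM (tumor) for *Cxcl1* and 2255 CPM (tumor) for *Cxcl2*; the leading cluster of *Cxcl16* in tumor became that of *Apoe*. At resolution 1.5, where the *Ereg* cluster led for *Cxcl1* and *Cxcl2* in tumor and *Cxcl16* in control, levels were 294 and 159 CPM for *Cxcl1*, 5415 and 1984 CPM for *Cxcl2*, 106 and 79.9 CPM for *Cxcl3* and 28.4 CPM (control) for *Cxcl16*. Genes at least 2-fold higher and lower numbered 481 and 417 with at least 100 UMIs and 1320 and 2054 with no filter, against 818 and 938; the cause was not tested. The other 235 values stayed within the interval of the value reported.

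With 1 library per group, intervals hold no variation between animals or preparations. Scores from Scrublet are estimates, and the 6% removed was set by rank. No paired analysis was possible because each group is 1 library.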
